A study of Mus musculus with 12 samples.

Results

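Stat3 ChIP-seq peaks called after peroxide treatment were compared with basal ones in -/-C3S MEFs. In these cells the only Stat3 is the redox-insensitive C3S form. The members are the summits of the ChIP-seq read peaks in the 2 lists of these cells: 223 in the peroxide list and 145 in the basal list, of 2136 in the 5 lists of the series. A peroxide summit within 200 bp of a basal summit was called shared, any other peroxide summit gained, and any basal summit without such a partner lost. By this rule, which used position alone, the lists held 327 distinct loci, of which 41 were shared, 182 gained and 104 lost. Whether the peaks mark bound Stat3 was not tested. The paper regards the few peaks of unstimulated cells as more probably noise, and those after peroxide as nearly the same.

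The MEFs are immortalised fibroblasts from Stat3 fl/fl embryos. They were transduced with MSCV vectors for Cre-Thy1.1, to delete endogenous Stat3, and for GFP with either WT-Stat3 (-/-WT) or Stat3-C3S (-/-C3S), whose DNA binding domain has substituted cysteines, and were sorted into polyclonal lines. Both C3S groups were serum-starved overnight, and 1 of them then received peroxide for 1 h. The dose is 100 mM in the sample labels, while the text of the methods has the same figure in µM. The -/-WT lists used for comparison are from cells under basal conditions, treated with peroxide for 1 h, or treated with LIF at 10 ng/ml for 45 min. Each condition had 2 ChIP replicates, and each deposited list was made from both. No value below therefore has a replicate error, and tests between lists speak of the lists rather than of the treatment. The lists hold no read counts, so that the depth behind a summit is not known here, and by the paper's account the LIF libraries were sequenced more deeply than all others. The deletion of Stat3, its replacement and the identity of the cells as fibroblasts could not be checked in them.

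Stat3 is a transcription factor that cytokines of the IL-6 family such as LIF activate through phosphorylation, upon which it dimerises and binds palindromic sites of the SIE type, TTCCNGGAA, near targets such as Socs3. Peroxide oxidises cysteines of Stat3 and impairs its binding to the SIE in vitro, whereas the C3S form was made to resist this. LINE-1 elements, which recur throughout this account, are retrotransposons that make up a large part of mouse DNA in many similar copies. A full copy holds a promoter at its 5′ end and 2 reading frames, the first for an RNA-binding protein and the second for an endonuclease and reverse transcriptase. Reads from such copies are difficult to place, as the same sequence can occur at many positions.

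Most of the C3S loci, whether shared, gained or lost, lay in LINE-1 sequence. The shared locus with the highest peroxide score that lay in a copy with both reading frames uninterrupted was at chr14:36543209 (mm10), and this copy, at chr14:36539132-36547133 on the minus strand, was taken as the reference element. It spans 8002 bases as cut here, with a first frame of 371 codons and a second of 1281 codons that holds the F-A-D-D box of reverse transcriptases. The sequence within 80 bp of a summit matched this element over at least 60% of its length for 40 of 41 shared loci, 171 of 182 gained loci (94.0%, 95% interval 89.4 to 96.9%) and 83 of 104 lost loci (79.8%, 70.8 to 87.0%). The median identity of the matches was 98.1% for shared loci and 97.5% for gained and for lost loci. The locus of the reference element is counted among the shared ones and matches itself at 100%. Of windows placed every 1 Mb along the reference, 270 of 2638 matched (10.2%, 9.10 to 11.5%), with a median identity of 90.1%. The -/-WT basal and peroxide lists resembled the C3S lists in this respect, with 215 of 230 and 432 of 450 windows matched. In the -/-WT LIF list, 1 of 1088 windows matched, at 74.2% identity.

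**Figure D1:**
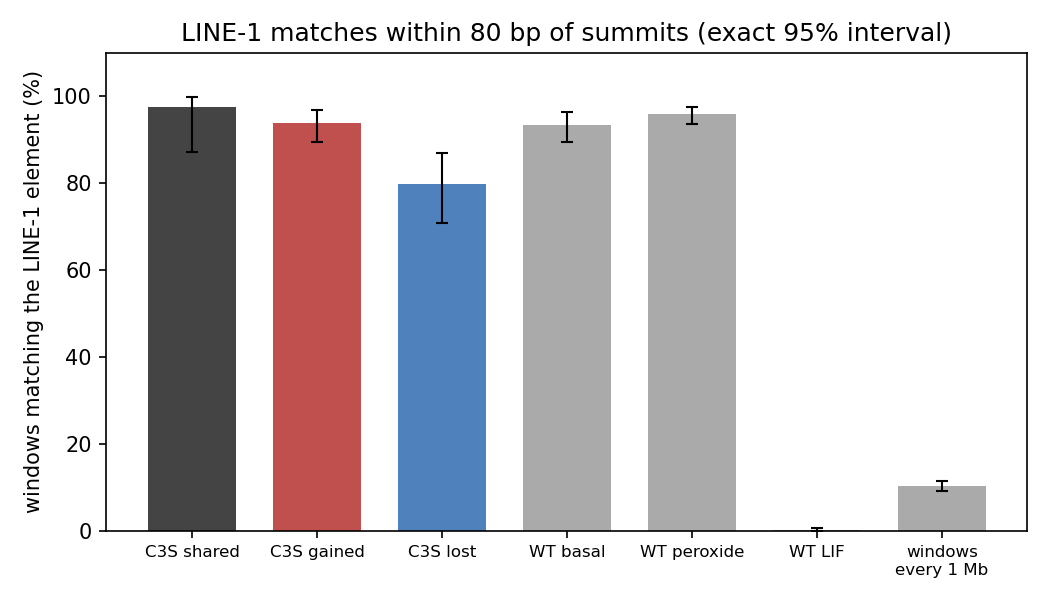
Share of windows, in percent, that matched the reference LINE-1 element within 80 bp of the summit, for the C3S loci by status, the 3 -/-WT lists and windows placed every 1 Mb along the reference. Bars are shares and error bars exact 95% binomial intervals. C3S shared, gained and lost loci stand at 97.6%, 94.0% and 79.8%, against 10.2% of the spaced windows and 0.0919% of LIF windows.

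The sequences below show how alike loci of different status can be. The first set is the shared locus with the highest peroxide score, chr5:41592502, with the highest-scoring gained locus and the highest-scoring lost locus whose summits lay within 30 bases of the same place in the element and outside exons and promoters. The same 161 bases of the element, around its position 6260 in the second reading frame, are given 5′ to 3′ along the element from mm10. Capitals mark bases that differ from the reference element within the aligned part.

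shared, chr5:41592422-41592582, plus strand: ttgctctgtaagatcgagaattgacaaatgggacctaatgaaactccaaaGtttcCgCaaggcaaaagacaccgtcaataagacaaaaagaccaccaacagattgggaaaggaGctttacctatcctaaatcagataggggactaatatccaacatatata
gained, chr5:41571197-41571357, plus strand: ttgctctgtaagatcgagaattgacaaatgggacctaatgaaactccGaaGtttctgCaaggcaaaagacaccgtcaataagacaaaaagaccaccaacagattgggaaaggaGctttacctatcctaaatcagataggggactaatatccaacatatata
lost, chr6:122222792-122222952, minus strand: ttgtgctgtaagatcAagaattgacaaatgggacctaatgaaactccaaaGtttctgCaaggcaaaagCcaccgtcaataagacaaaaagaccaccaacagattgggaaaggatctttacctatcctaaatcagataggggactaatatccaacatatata

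The shared and the gained locus, both beyond the 3′ end of Rab28, a small GTPase gene, differed at 2 of 161 bases. The lost locus, in an intron of the pseudogene Mug-ps1, differed at 6 bases from each of them. The shared locus ranked 2 of 223 in the peroxide list and the gained one 19, whereas the lost locus ranked 2 of 145 in the basal list. The second set, chosen in the same way around the shared locus of the reference element itself, is from position 3925 of the element, also in the second reading frame.

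shared, chr14:36543129-36543289, minus strand: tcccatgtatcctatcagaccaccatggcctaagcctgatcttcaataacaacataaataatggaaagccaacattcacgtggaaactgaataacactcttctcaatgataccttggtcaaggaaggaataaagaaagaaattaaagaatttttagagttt
gained, chr6:45835989-45836149, plus strand: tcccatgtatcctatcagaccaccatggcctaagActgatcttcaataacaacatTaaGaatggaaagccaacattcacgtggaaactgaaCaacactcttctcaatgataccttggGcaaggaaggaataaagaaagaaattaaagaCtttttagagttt
lost, chr14:44302276-44302436, plus strand: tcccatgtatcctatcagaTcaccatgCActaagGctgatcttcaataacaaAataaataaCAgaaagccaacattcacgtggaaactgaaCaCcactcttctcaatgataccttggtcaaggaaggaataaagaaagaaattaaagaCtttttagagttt

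The gained locus lay in an intron of Cntnap2, a neuronal cell adhesion gene, and differed from the shared one at 6 of 161 bases. The lost locus, in an intron of the noncoding Gm32857, differed from it at 10. These 3 loci ranked 6 and 14 in the peroxide list and 71 in the basal list. In both sets, loci that were called in only 1 of the lists carried almost the same bases as the locus called in both. As the loci were chosen by their place in the element, this likeness follows largely from the choice. The sets are examples only.

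The overlap of the lists was small but positionally tight. Shared summits were 41 of 223 in the peroxide list (18.4%, 13.5 to 24.1%) and 41 of 145 in the basal list (28.3%, 21.1 to 36.3%). The bases within 200 bp of a basal summit amount to 0.00220% of the reference. Where summits were shared they lay at a median of 5 bp from each other, with 27 of 41 within 10 bp and the farthest at 47 bp. Beyond these, the next nearest pairs were 284 and 446 bp apart and the one after that 2.29 kb, so that the 200-bp limit fell in a gap. The median distance from a gained summit to the nearest basal summit on its chromosome was 4.50 Mb, and 7 of 182 gained summits had a basal summit within 100 kb. The share of peroxide summits that were also basal was 18.4% in -/-C3S MEFs and 107 of 450 (23.8%) in -/-WT MEFs, an odds ratio of 0.722 (95% interval 0.470 to 1.10) that did not pass Fisher's exact test (2-sided, adjusted p = 0.288 over 10 tests). The share of basal summits that were also in the peroxide list differed more. It was 28.3% in -/-C3S MEFs and 107 of 230 (46.5%, 39.9 to 53.2%) in -/-WT MEFs, and was not tested. Both -/-WT lists are longer than the C3S ones, at 450 against 223 peroxide and 230 against 145 basal summits.

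Shared loci were found mostly among the higher-scoring summits. Of the peroxide list, 34 of 112 summits above the middle of the list by score were shared (30.4%), against 7 of 111 below it (6.31%; odds ratio 6.42, 2.62 to 18.1, Fisher's exact test, adjusted p = 3.61e-05). Of the basal list, 28 of 73 summits above the middle were shared (38.4%), against 13 of 72 below it (18.1%; odds ratio 2.80, 1.24 to 6.61, Fisher's exact test, adjusted p = 0.0315). In the peroxide list the score ranged from 4.06 to 47.8 for shared loci, with a median of 15.0, and from 1.39 to 49.6 for gained loci, with a median of 10.8. In the basal list it ranged from 3.17 to 39.7 for shared loci, with a median of 13.7, and from 1.41 to 53.1 for lost loci, with a median of 10.2. The ranges of shared and unshared loci thus overlapped throughout, and the highest summit of either list was not shared. Among the 10 highest summits, 4 were shared in the peroxide list and 6 in the basal list.

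**Figure D2:**
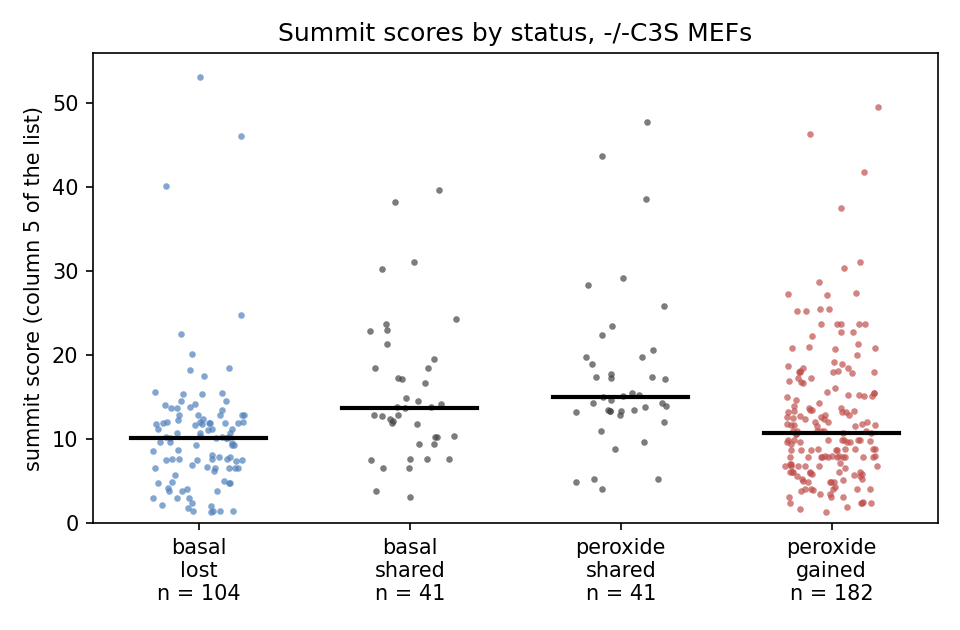
Score of each summit (as deposited, unit not named) for lost and shared summits of the basal list and shared and gained summits of the peroxide list. Points are summits and black lines medians, which are 10.2 and 13.7 in the basal list and 15.0 and 10.8 in the peroxide list. Scores are to be read within a list only.

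The ranks of the 41 shared loci in both lists went together (Spearman's rho = 0.75, given as a description, as these loci are copies of related sequence). The locus nearest to Rab28 ranked 5 in the basal list and 2 in the peroxide list, and the one nearest to the pseudogene Gm2021 (chr7:39686642) ranked 4 in both. The locus in the reference element, nearest to the snoRNA gene Gm24394, ranked 7 and 6. As a share of the length of each list, the rank differed most at Camk2b (chr11:6006424), which stood 73.1% down the basal list and 26.0% down the peroxide list. It was followed by Rab3c (chr13:110148669), at 77.9% and 44.4%, and Gm14566 (chrX:39259703), at 34.5% and 65.9%.

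**Figure D3:**
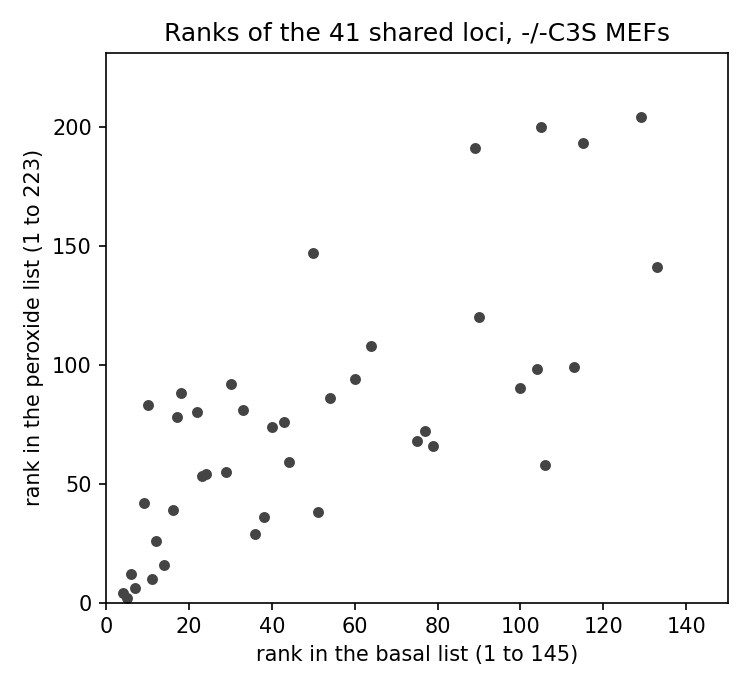
Rank of each of the 41 shared loci in the basal list (x axis, 1 to 145) and in the peroxide list (y axis, 1 to 223), where rank 1 is the highest score. Points lie along a rising band (Spearman's rho = 0.75), which starts near the Rab28 locus at 5 and 2 and reaches down to a rank of 133 in the basal and 204 in the peroxide list.

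The 10 highest shared loci were led, in the peroxide list, by those nearest to Rab28, Gm2021 and Gm24394, with scores of 47.8, 43.7 and 38.6. The next, with a score of 29.2, lay in an intron of Ptprt (chr2:161989173), which codes for a receptor-type tyrosine phosphatase for which Stat3 is a known substrate. It was 146 kb from the nearest start site of that gene, which spans 1139 kb. A shared locus with a score of 28.4 was nearest to the pseudogene Gm2869, and another lay 18.1 kb from a start site of Kdm6a (chrX:18292630, 25.9), a histone demethylase gene. The remaining 4 were nearest to the pseudogenes Gm7001, Gm4746 and Gm27236 and in an intron of the lincRNA 7420701I03Rik, with scores between 19.9 and 23.5. Of these 10 nearest or host genes, 3 code for proteins and 5 are pseudogenes.

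Among the 10 highest gained loci, 6 lay in introns. The highest summit of the peroxide list, with a score of 49.6, lay in B3galt1 (chr2:67637148), a galactosyltransferase gene of 557 kb. Further gained summits lay in introns of Atp13a5 (41.9), Pcdh7, a protocadherin gene of 415 kb (37.5), Ak5, an adenylate kinase gene (31.1), Itln1 (28.7) and Cntnap2, which spans 2245 kb (27.3). The summit with a score of 46.3 at chr14:15125526 lay 4.55 kb upstream of Gm47756. The other 3 were intergenic and nearest to Gm7931, Cnga2, a cyclic nucleotide-gated channel gene 112 kb away, and the lincRNA Gm48722, with scores between 27.2 and 30.4.

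The 10 highest lost loci were mostly intergenic. The highest basal summit, with a score of 53.1, lay 87.1 kb from the lincRNA Gm49534 (chr16:7957167), and the next were in Mug-ps1 (46.2) and 126 kb from Zkscan2, a zinc finger gene (40.2). The basal scores then fell to 24.8 near Gm24774, 22.6 near Gm18183 and 20.2 near Gm22212. Sult1b1, a cytosolic sulfotransferase gene, had a lost summit 4.49 kb upstream of a start site (chr5:87542688, 18.5). Gm28262, Spin3-ps and Gm29536 were nearest to the remaining 3, with scores between 15.6 and 18.2. The lost locus near Gm18183 was the only one of these 30 highest loci whose window did not match the LINE-1 element.

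The -/-WT lists showed that many loci that were gained or lost in -/-C3S MEFs were also called in -/-WT MEFs. Of the 41 shared loci, 29 were in the -/-WT peroxide list and 21 in the -/-WT basal list, 17 in both and 8 in no -/-WT list. Of the 182 gained loci, 52 (28.6%) were in the -/-WT peroxide list and 32 (17.6%) in the -/-WT basal list. Of the 104 lost loci, 30 (28.8%) were in the -/-WT peroxide list and 22 (21.2%) in the -/-WT basal list. In no -/-WT list were 118 gained loci (64.8%, 57.4 to 71.8%) and 64 lost loci (61.5%, 51.5 to 70.9%). The LIF list held 1 shared, 1 gained and 0 lost loci.

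Gained loci were found more often in the -/-WT peroxide list alone (31) than in the -/-WT basal list alone (11; exact McNemar test, 2-sided, adjusted p = 0.0144). The -/-WT peroxide list is the longer one, with 450 summits against 230. When it was cut by score to the length of the basal list, the counts of gained loci in these lists differed by 1 (exact McNemar test, adjusted p = 1). For lost loci, 18 were in the -/-WT peroxide list alone and 10 in the -/-WT basal list alone (exact McNemar test, adjusted p = 0.370). Whether gained and lost loci differ in this was not tested. The gained locus near Gm47756 ranked 4 in the -/-WT basal list and 9 in the -/-WT peroxide list, and the lost locus near Zkscan2 ranked 2 and 7. The lost locus in Mug-ps1 ranked 5 in the -/-WT peroxide list and was not in the -/-WT basal list, whereas the highest gained locus, in B3galt1, and the highest lost locus, near Gm49534, were in no -/-WT list. Loci of high rank in both -/-WT lists could thus be called under only 1 of the C3S conditions.

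In the reference element, summits were spread along the body and were few at the 5′ end. The second reading frame held 32 of 40 matched shared summits, 137 of 171 gained (80.1%) and 61 of 83 lost (73.5%). The first frame held 3, 14 and 6 summits, and the part after the second frame 5, 13 and 14. Before the first frame, where the promoter of a LINE-1 element lies, there were 0 shared, 7 gained and 2 lost summits. These counts hold only summits whose window matched the 1 chosen copy. Some unmatched summits also lay in elements with frames of 371 and 1281 codons, such as the gained chr17:72635231 and the lost chr6:147903001. The match shares and the low count at the 5′ end thus depend on the copy chosen. Of windows placed every 100 kb along the reference that matched at an identity of at least 95%, 545 of 780 (69.9%) were in the second frame, 140 (17.9%) after it and 23 (2.95%) before the first frame.

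**Figure D4:**
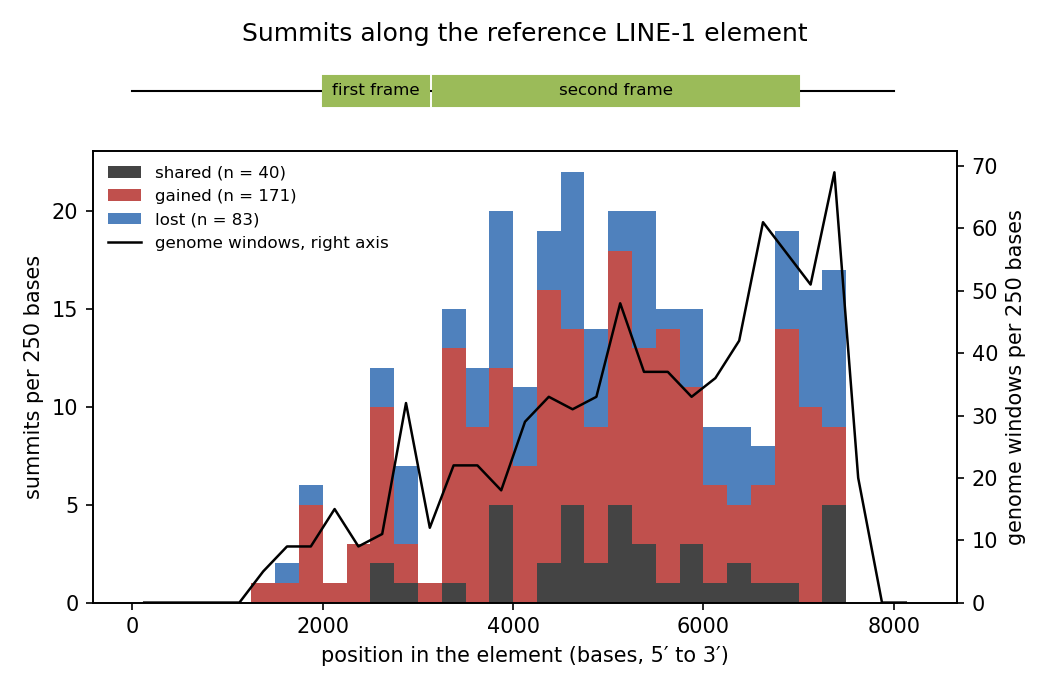
Number of matched summits per 250 bases (left axis, stacked bars by status) along the reference LINE-1 element, with its 2 reading frames drawn to scale above, and number of genome windows placed every 100 kb that matched at an identity of at least 95% (black line, right axis). Summits of all 3 kinds lie mainly in the second frame, with 0 shared, 7 gained and 2 lost before the first.

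Some C3S summits lay in copies with an uninterrupted second frame, at shares whose intervals overlap that of other near-identical copies. A second frame of at least 1200 codons with the F-A-D-D box was found in the element around 11 of 41 shared summits (26.8%, 14.2 to 42.9%), 44 of 182 gained (24.2%, 18.1 to 31.1%) and 21 of 104 lost (20.2%, 13.0 to 29.2%). Among all windows every 1 Mb it was found for 17 of 2638 (0.644%, 0.376 to 1.03%). Among those that matched the element at an identity of at least 95%, however, it was found for 9 of 37 shared (24.3%, 11.8 to 41.2%), 30 of 143 gained (95% interval 14.6 to 28.6%) and 19 of 71 lost loci (26.8%, 16.9 to 38.6%), and for 147 of 780 windows every 100 kb (18.8%, 16.2 to 21.8%). The frame was of 1281 codons, as in the reference element, for 11, 37 and 20 of these loci. The first frame, where there was one, was mostly of 371 codons (42 loci) or 357 codons (18 loci). The shared counts include the locus of the reference element, which was chosen for its uninterrupted frames.

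Few windows were largely free of repeats. All 41 shared windows and 179 of 182 gained windows were wholly repeat-masked, that is, in lower case in the reference, against 91 of 104 lost windows (87.5%) and 342 of 2638 windows every 1 Mb (13.0%). Less than 50% of the window was masked at 0 shared, 2 gained and 8 lost loci. The 8 lost ones ranked 98 or lower of 145, with scores between 1.43 and 7.88, and 4 of them were on chromosome 10. They included summits in introns of Bcr (3.87) and Frk (3.02), both kinase genes, and in an exon of Plat, which codes for tissue plasminogen activator (3.02). Others lay upstream of Cenpe (1.47) and Tle2 (1.43) and, within Olfr822, upstream of an internal start site (7.88). The LIF list held 0 of these 8, and 1 of the 2 gained ones, 0.008 kb from a start site of the pseudogene Gm10060 (chr8:19784738, 3.98). Chromosome 10 held 15 of 145 basal summits (10.3%, 5.91 to 16.5%) and 12 of 223 peroxide summits (5.38%, 2.81 to 9.21%), and makes up 4.80% of the reference.

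The 1 shared locus without a LINE-1 match lay in an intron of Camk2b, a calmodulin-dependent kinase gene (chr11:6006424). Its window was wholly repeat-masked and had a GC content of 62.7%, against a median of 38.5% for shared windows. Its rank was 58 with peroxide and 106 under basal conditions in -/-C3S MEFs, and it was also in the -/-WT peroxide list (rank 410 of 450) and the -/-WT LIF list (rank 724 of 1088). It was the only shared locus in the LIF list. The kind of repeat was not identified, and the cells carry retroviral MSCV vectors, whose part in the reads at this locus was not tested, so that a binding site within Camk2b itself cannot be taken from these lists.

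At most loci part of the sequence could be told from its other copies at the length of a read. A sequence of 75 bases that occurs once in the reference was present within 80 bp of 31 of 41 shared summits (75.6%), 141 of 182 gained summits (77.5%) and 80 of 104 lost summits (76.9%), against 2442 of 2638 windows every 1 Mb (92.6%). The difference between gained and shared loci did not pass Fisher's exact test (odds ratio 1.11, 95% interval 0.446 to 2.57, adjusted p = 0.838). The median number of copies of a 75-base sequence was 2 in shared, gained and lost windows alike, and was 100 or more in 3, 16 and 6 of them. At the remaining 10 shared, 41 gained and 24 lost loci, no 75-base sequence within 80 bp was unique. The paper speaks of unique reads without saying whether reads with several matching positions or duplicate reads were left out, and the part of this in which loci were called was not tested.

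No location class passed the test between the lists. The 41 shared loci are in both lists, which draws the shares together and which the test does not take into account. Gained and lost loci were not tested against each other. Intergenic summits, outside a promoter (from 5 kb upstream to 0.5 kb downstream of a start site), exon or intron, were 153 of 223 with peroxide (68.6%, 62.1 to 74.6%) and 97 of 145 under basal conditions (66.9%, 58.6 to 74.5%; odds ratio 1.08, 0.673 to 1.73, Fisher's exact test, adjusted p = 0.838). Introns held 54 (24.2%) and 33 (22.8%) summits (odds ratio 1.08, 0.644 to 1.84, Fisher's exact test, adjusted p = 0.838), and promoters 15 (6.73%) and 13 (8.97%; odds ratio 0.733, 0.314 to 1.73, Fisher's exact test, adjusted p = 0.715). Exons held 1 and 2 summits (odds ratio 0.323, 0.00544 to 6.26, Fisher's exact test, adjusted p = 0.806). Of reference bases, 48.0% are intergenic, 34.5% intronic, 2.88% exonic and 14.6% in promoters. Near-identical LINE-1 copies, taken from windows every 100 kb with an identity of at least 95%, were intergenic in 70.4%, intronic in 24.7% and in promoters in 4.87% of 780.

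**Figure D5:**
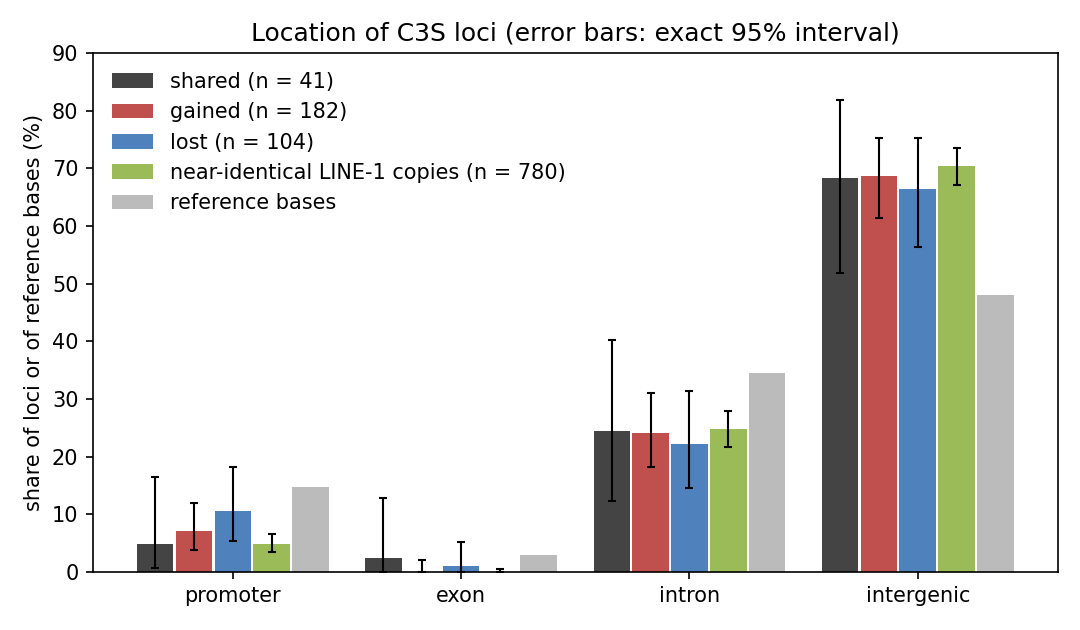
Share of shared (n = 41), gained (n = 182) and lost (n = 104) loci, of 780 near-identical LINE-1 copies and of all reference bases in promoters, exons, introns and intergenic sequence, in percent, with exact 95% binomial intervals for loci and copies. Intergenic shares of the loci lie between 66.3% and 68.7%, above the 48.0% of reference bases and beside the 70.4% of LINE-1 copies.

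Only 2 genes had a promoter summit in both lists. The pseudogene Gm47517 (chr9:8472748) and Trpc5os had a shared summit, 3.53 and 4.16 kb upstream, respectively. Of 13 genes with a gained promoter summit, 3 code for proteins. Fmn2, a formin that nucleates actin, had its summit within the gene, 3.51 kb upstream of an internal start site (score 12.7). Kifap3, a subunit of a kinesin motor (3.63 kb upstream, 8.86), and Vps13b (4.00 kb, 2.37) had theirs before the gene. The other 10 were Gm47756, Gm47699, Gm32857, Gm48388, Gm24092, Gm45558, Olfr953-ps1, Gm12601, Gm10060 and Vmn2r-ps20, all pseudogenes or noncoding genes. Of 11 genes with a lost promoter summit, 9 code for proteins. These include Sult1b1, the lipase gene Lipi (2.83 kb upstream, basal score 15.4), Glrx2, which codes for a mitochondrial glutaredoxin that reduces glutathione-protein disulfides (4.63 kb, 14.5), Arsk, a lysosomal sulfatase gene (1.86 kb, 9.65), and Slc24a3, a cation exchanger gene (4.77 kb, 7.37). Also among them were Gm17631 (10.3), Olfr822, Cenpe, which codes for a kinesin of the centromere, and Tle2, a corepressor gene. The summits of Lipi, Arsk, Slc24a3 and Olfr822 lay within the gene, upstream of an internal start site. The Glrx2 summit (chr1:143711709) lay in LINE-1 sequence (94.2% identity) in which no 75-base sequence within 80 bp was unique. This locus was in the -/-WT peroxide list and not in the -/-WT basal list. Gm23902 and Gm9522 were the noncoding gene and the pseudogene with a lost summit. Whether genes with gained and lost promoter summits differ in their share of protein-coding genes was not tested, and no background share was measured. With protein-coding genes only, the promoter share differed by -5.10 percentage points (peroxide minus basal, Fisher's exact test, adjusted p = 0.0552).

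Distances from summits to gene starts are given as a description only, as they were not measured for other windows. The median distance from a summit to the closest start site was 25.4 kb for shared loci, 32.1 kb for gained and 29.9 kb for lost loci, and exceeded 50 kb at 11, 61 and 40 of them. The nearest start site belonged to a protein-coding gene at 14 of 41, 35 of 182 and 30 of 104 loci. The 327 loci rarely had a nearest gene in common: Gm10060 was nearest to 3 of them and 8 further genes, Rab28 among them, to 2 each.

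Of all annotated genes, 362 of 55413 (0.653%) had a start site within 50 kb of a C3S peroxide summit and 249 (0.449%) within 50 kb of a C3S basal summit. None of 28 Stat3 targets and receptors, 26 oxidant defence genes and 21 genes of the Hif-1 pathway was among them in either list. Glrx2, named above for its lost promoter summit, was not a member of the oxidant defence list. Of 197 matched genes of the oxidant-responsive list, 1 was near a peroxide summit (0.508%) and 1 near a basal summit (0.508%), shares close to the background. This list was chosen on expression in the same cell lines. The first was Gm3558, 44.0 kb from a gained summit that ranked 202 (chr14:7524612), and the second Lrrk2, a kinase gene with a lost summit in an intron, 9.54 kb from a start site, that ranked 137 of 145 (chr15:91762807). At a background this low, counts of 0 or 1 in lists of this length do not set these genes apart.

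The known Stat3 targets themselves had no C3S summit nearby. Socs3, the feedback inhibitor of Jak kinases, was 44236 kb from the nearest C3S peroxide summit and 6514 kb from the nearest basal one, and Stat3 itself 27157 and 10515 kb. Junb, an AP-1 subunit gene, was 19672 and 367 kb away, Csf1, a macrophage growth factor gene, 11600 and 16034 kb, and Fos, another AP-1 subunit gene, 2503 and 21900 kb. The -/-WT LIF list had a summit within 0.251 kb of a start site of Stat3, 0.062 kb of Socs3, 0.011 kb of Junb and 0.049 kb of Csf1, and its nearest to Fos was 231 kb away. That list differs from the C3S lists in both cell line and treatment, and the series has no LIF list of -/-C3S MEFs. Distances in the -/-WT basal and peroxide lists were not measured. For Stat3, Socs3, Junb and Csf1, the paper describes basal binding in -/-WT controls that fell after peroxide.

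The SIE, TTCCNGGAA on either strand, was in none of the C3S windows of 80 bp on either side of the summit. With 0 of 223 peroxide and 0 of 145 basal windows, shares of up to 1.35% and 2.07% are allowed, and 0.399% of all windows of this width tiled along the reference hold the motif, as do 0.246% of the wholly repeat-masked ones. The reference LINE-1 element holds none along its 8002 bases. With up to 1 mismatch, the SIE was in 15 peroxide (6.73%, 3.81 to 10.9%) and 8 basal windows (5.52%, 2.41 to 10.6%), against 9.36% of windows every 1 Mb.

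Other motifs were near or below their level in all tiled windows, though AP-1 in peroxide windows was above its level in wholly repeat-masked ones. The AP-1 site, TGANTCA, was in 12 peroxide (5.38%, 2.81 to 9.21%) and 4 basal windows (2.76%, 0.757 to 6.91%), against 4.78% of all tiled windows and 2.66% of wholly repeat-masked ones. By status, 1 shared, 11 gained and 3 lost windows held it. The hypoxia response element core, ACGTG or GCGTG, was in 14 peroxide (6.28%, 3.47 to 10.3%) and 14 basal windows (9.66%, 5.38 to 15.7%), against 10.6% of all and 7.97% of repeat-masked windows. It was in 5 shared (12.2%, 4.08 to 26.2%), 9 gained (4.95%, 2.29 to 9.18%) and 11 lost windows (10.6%, 5.40 to 18.1%). AGGNNNAGG was in 15 (6.73%, 3.81 to 10.9%) and 13 (8.97%, 4.86 to 14.8%) windows, against 13.0% of all and 10.3% of repeat-masked windows, and by status in 3 shared, 12 gained and 10 lost windows. The reference LINE-1 element itself holds 3 AP-1 sites, 7 hypoxia response element cores and 3 matches of AGGNNNAGG. Shares of these motifs were not measured in other near-identical LINE-1 copies. A match or its lack describes the sequence and not binding.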

How the data were processed

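ChIP was done with an antibody against Stat3 in 2 replicates per condition, and 75-base paired-end reads were sequenced. According to the paper, the authors mapped reads to mm10, and for -/-WT MEFs it describes peaks as above IgG controls. The series' design text says that each file was made from both replicates, but not at which step they were joined. The submitters' processing notes name HISAT2, Picard and MACS2, with no version or role. The deposited value of each summit is a score whose unit is not given in the sources used here, and it was used for ranks within a list only. The series holds 1 input and 1 IgG library, which are from -/-WT MEFs, and no such control from -/-C3S MEFs. Neither was used here.

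All summits fell within GRCm38, which shares its coordinates with mm10, and were annotated with GENCODE M21 in the order promoter, exon, intron, intergenic. Copies of 75-base sequences were counted on both strands over 65 reference sequences. Windows were aligned to the reference element with BLAST 2.17.0 (E-value of 1e-10, at least 60% of the window). The element was 2 kb before the first frame to 1 kb after the second. The files used here hold no names of repeats, so that LINE-1 sequence was identified by its reading frames.

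Shares were compared by 2-sided Fisher's exact tests and paired presence by exact McNemar tests, with Benjamini-Hochberg adjustment over 10 tests. Intervals are exact Clopper-Pearson 95% intervals and, like the limit for a count of 0 (3 counts), cover counting error only, while loci that are copies of each other are not independent. Overlap, copy counts, motif searches and matching were tested on simulated data. Genes were named by rule: those nearest to the 10 highest shared, gained and lost loci, those with a promoter summit, 5 known Stat3 targets, and members of the gene lists within 50 kb. Among the 10 highest loci, those in introns were named by their host gene instead, for which this rule did not provide. Bcr, Frk, Plat, Camk2b, Rab3c, Gm14566, Gm14740 and Bpifa5 also fall outside this rule and were chosen after their values were seen. The loci, lists and rules were chosen with earlier results of these data known, and the LINE-1 comparison after the sequences had been seen. The oxidant-responsive list is the study's own. The 56 alternatives comprise other distances, windows, classes and list lengths. Python 3.11.15, NumPy 2.4.6, SciPy 1.17.1, Numba 0.67.0 and matplotlib 3.10.9 were used.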

Additional observations from a re-analysis of the deposited data

How the results depend on the processing

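No replicate could be left out of lists that each pool both. No paired analysis was possible because each deposited list was made from both replicates of a condition. Of 56 alternatives, 45 left the result's direction and side of the threshold, or its count within 1.5 times. With only the summits above the middle score of each list, 27 summits were shared and 46 lost, as fewer summits entered, and the difference in intergenic share (peroxide minus basal) turned to -2.48 percentage points (Fisher's exact test, adjusted p = 1). With promoters of 1 kb on either side, the difference in promoter share turned to 0.656 and that in intron share to -1.54 percentage points (peroxide minus basal), and neither passed the test before or after. With the -/-WT peroxide list cut to the length of the -/-WT basal list, the McNemar difference was 1 for gained loci and -2 for lost loci, and the call for gained loci ended. The SIE was in 1 peroxide window at 200 bp on either side and in 15 with 1 mismatch. List genes near a peroxide summit numbered 0 within 10 kb and 3 within 100 kb.

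The lists give no depth, no replicate spread and no reads per locus. How near a locus called in 1 list came to a call in the other was not tested. In the basal list, summits with the same score lie on both sides of its middle (10.7) and were assigned by position.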

Other observations

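Of the peroxide summits, 22 of 223 were on the X chromosome (9.87%, 6.29 to 14.6%), as were 13 of 145 basal summits (8.97%, 4.86 to 14.8%), while this chromosome makes up 6.28% of the reference and holds 89 of 780 near-identical LINE-1 copies (11.4%, 9.26 to 13.9%). Genes that host an intronic summit had a median length of 162 kb for shared, 420 kb for gained and 206 kb for lost loci, against 153 kb for 925 intronic windows placed every 1 Mb. Ptprt hosted 2 of these summits and every other host gene 1. The element lay on the strand opposite to the host gene at 4 of 9 shared, 23 of 42 gained and 13 of 18 lost loci (72.2%, 46.5 to 90.3%), and at 121 of 193 near-identical copies in introns (62.7%, 55.5 to 69.5%).

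In all 4 lists other than LIF, 17 shared loci were found. As a share of the length of each list, the one near Gm14740 (chrX:82537099) stood 71.7% and 43.9% down the C3S basal and peroxide lists and 4.78% and 6.00% down the -/-WT ones. The one near Bpifa5 (chr2:154176131) stood at 6.90% and 37.2% of the C3S lists.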
